A study of Mus musculus with 12 samples.

Results

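The 45 genes described here form the interferon response of the mouse genome as listed by gene name: receptors for type I and type II interferon, the STAT and IRF factors that carry the signal, and genes known to be switched on by it. Each gene was chosen by name and represented by the probe set that carries its name alone, or the one with the highest mean over the 12 arrays where there were several. A probe set was available for 42 of the 45 genes among the 17097 genes named on the arrays. The expression of Isg15, Ifi44 and Bst2 was not analysed here, but their promoters are among those searched below. Of the 42, 35 were bright enough to be tested, among 11223 genes tested in all.

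The 12 arrays measured RNA of mouse acute myeloid leukaemia (AML) cell lines, prepared as biotinylated cRNA. The cells received no treatment and grew with interleukin-3 at 5 ng/ml in medium that held 10% serum. TB13 and TB14 are AML lines labelled as expressing Trib1 and Bcl11a, and Trib1 is an AML line labelled as expressing Trib1 alone. Trib1 is a pseudokinase known to drive degradation of C/EBPalpha, and Bcl11a is a DNA-binding protein with zinc fingers that is known to repress genes. All 3 lines therefore carry Trib1, each line has 4 arrays, and only 1 line is not labelled as expressing Bcl11a. Bcl11a itself did not set the lines apart on these arrays. Its brightest of 4 probe sets read 14.0 to 17.3 in TB13, 12.5 to 15.7 in TB14 and 14.4 to 21.5 in Trib1, and none of the 4 passed the filter. Which part of Bcl11a the lines express is not given in the labels, so these probe sets neither bear out nor contradict the labels, and TB13 and TB14 are called Bcl11a lines by label only. The series asks whether Bcl11a acts against PU.1, a regulator of myeloid genes that Spi1 encodes. No label says that the 4 arrays of a line came from separate cultures, so p-values measure only how much arrays of a line varied, possibly for technical reasons, and not how lines vary.

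Type I interferons bind a receptor made of Ifnar1 and Ifnar2 and activate Stat2, which joins Irf9 in a complex that binds the interferon-stimulated response element (ISRE) in the promoters of its targets. Type II interferon binds Ifngr1 and Ifngr2, and many of its targets carry the gamma-activated site (GAS). The genes induced include sensors and destroyers of viral RNA, membrane proteins that block virus entry and a brake on the pathway itself, and in myeloid cells a low level of many of them is known to be kept up without infection.

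The promoters of the genes carried the element of the pathway more often than other promoters. A window of 250 bases before to 50 after the start of each gene (RefSeq, build GRCm38.p6, the first window listed for a gene) was matched for 37 of the 45 genes. The letters TTTCNNTTTC, an ISRE core, occurred on either strand in 18 of the 37 windows, or 48.6%, and in 3.49% of all 27025 windows. The GAS letters TTCNNNGAA occurred in 29.7% and 8.47%, and the PU.1 core GAGGAA, searched on both strands too, in 27.0% and 28.3%. A match is a description of letters and not evidence of binding. The ISRE letters occurred in 5 of 11 windows of genes lower in both Bcl11a lines and in 1 of 4 of genes higher in TB13 alone. Stretches of 90 bases with the ISRE letters in capitals are printed for genes with different combinations of calls in the 2 Bcl11a lines. They were picked from windows that held the letters. Irgm1 and Gbp2 were lower in both, Gbp2 having passed the filter through the Trib1 arrays alone. Igtp and Rsad2 were called in 1 line each, and Ifitm2 and Stat2 were higher in TB14. Irgm1 lies on the minus strand at chr11:48871421-48871510, Gbp2 on the plus strand at chr3:142620573-142620662, and Igtp on the plus strand at chr11:58199466-58199555. Rsad2 lies on the minus strand at chr12:26456523-26456612, Ifitm2 on the minus strand at chr7:140955962-140956051, and Stat2 on the plus strand at chr10:128270248-128270337.
Irgm1: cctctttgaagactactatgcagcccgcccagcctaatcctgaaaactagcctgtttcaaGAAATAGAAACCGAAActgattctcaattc
Gbp2: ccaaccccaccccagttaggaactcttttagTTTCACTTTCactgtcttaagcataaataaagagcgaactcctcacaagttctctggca
Igtp: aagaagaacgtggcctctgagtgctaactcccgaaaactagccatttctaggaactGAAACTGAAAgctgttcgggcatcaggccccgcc
Rsad2: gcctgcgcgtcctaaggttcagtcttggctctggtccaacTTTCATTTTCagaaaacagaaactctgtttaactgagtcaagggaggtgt
Ifitm2: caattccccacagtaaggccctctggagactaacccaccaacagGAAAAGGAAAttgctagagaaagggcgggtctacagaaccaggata
Stat2: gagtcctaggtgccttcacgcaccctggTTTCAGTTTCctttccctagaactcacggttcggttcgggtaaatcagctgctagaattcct

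In measures that do not depend on interferon genes, the arrays of TB13 differed from the other 8. A control probe set for nonspecific signal read 461 to 622 in TB13, 189 to 205 in TB14 and 187 to 200 in Trib1. The part of this signal in the readings of dim genes in TB13 was not tested. The 18 hybridization control probe sets changed against Trib1 by a median of -0.93 (log2) in TB13 and 0.0010 in TB14, and the upper quartile of an array was 71.8 to 72.5 intensity units in TB13, 106 to 108.9 in TB14 and 102.2 to 105.5 in Trib1. Changes are differences of log2(intensity + 12.7), a scale that understates the change of dim genes. Over all genes tested the median log2 change in TB13 was -0.39 as deposited, 0.028 after quantile scaling, -0.63 after scaling to the array median and 0.52 after calibration on the hybridization controls. Each TB13 change was therefore tested for the deposited values and after quantile scaling, and for most genes both values are given. A change is called lower or higher "under both scalings" only where limma passed it in the same direction in each (Benjamini-Hochberg adjusted p under 0.05 over all genes). The 10 myeloid marker genes checked, among them Ptprc, Spi1, Cebpa and Mpo, all passed the filter, with summed intensities of 6143 to 6320 in TB13, 9138 to 9167 in TB14 and 8594 to 8649 in Trib1. Under both scalings 7 of the 10 were lower and 1 higher in TB13, where 36.5% and 24.8% of all genes were. In TB14, 6 were lower and 2 higher, where 19.7% and 22.6% of all genes were. Their median log2 change as deposited was -0.45 in TB13 and -0.31 in TB14, against -0.39 and -0.0024 for all genes. Of 6 named markers of plasmacytoid dendritic cells, known producers of interferon, Cox6a2, Klk1 and Irf8 passed and the other 3 did not. The sums over the list were 529 to 571 in TB13, 239 to 240.4 in TB14 and 663 to 693 in Trib1. Of 4 erythroid markers listed, 2 had a probe set and Hba-a1 alone passed, with sums of 1479 to 1613 in TB13, 1462 to 1492 in TB14 and 849 to 901 in Trib1. Hba-a1 was called higher in both Bcl11a lines, with log2 changes of 0.82 in TB13 and 0.76 in TB14 as deposited. For T and NK cells 6 of 7 named markers passed, among them Cd3e and Cd8a, with sums of 287 to 332 in TB13, 174 to 181 in TB14 and 243 to 252 in Trib1. For B cells 3 of 4 passed, with sums of 123 to 139, 86.4 to 93.9 and 90.5 to 94.4 in the same order of lines, and for stroma and endothelium 2 of 5 passed, Pecam1 and Vim, with sums of 3812 to 3927, 4001 to 4053 and 4549 to 4774. The T-cell gene Cd4 and the B-cell gene Ms4a1 passed the filter through the TB13 arrays alone, and Cd3g through the Trib1 arrays alone, so their directions were fixed by it. Among tested genes below 20 and at 20 to 30 in Trib1, 85.4% and 60% were called higher in TB13 under both scalings. The part of these markers in the results was not tested.

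In TB14, more of the tested interferon response genes were lower than higher against Trib1, while the TB13 counts depended on how the arrays were scaled. In TB14, 20 of the 35 tested genes, or 57.1%, were lower than in Trib1 under both scalings, and 3 were higher. Over all genes tested 19.7% were lower and 22.6% higher. In TB13, 19 of the 35, or 54.3%, were lower and 7 higher, over a background of 36.5% lower and 24.8% higher. In TB13 the share of lower genes stood above that of all genes after quantile scaling, with 22 lower and 9 higher over 38.1% and 42.1%, and near it as deposited, with 23 lower over 63.6%, and under calibration on the controls, with 5 lower over 11.3%. Both lines were lower for 15 genes, or 42.9%, over a background of 13.5%. Of these, Ifnar2, Trim25 and Parp9 were lower in both lines under all 4 scalings. Of all genes 10.9% were lower under all 4 in TB13 and 17.2% in TB14. The share lower in both lines was not counted, so no excess is claimed for the 3 genes. Xaf1 and Gbp2, counted as lower in both lines, lay above the array median on the 4 Trib1 arrays and on no other array. They passed the filter through Trib1 alone, so their direction was fixed by it. Irf7, counted as lower in TB14, lay above the array median on 4 Trib1, 2 TB13 and 0 TB14 arrays. It would not have passed without the Trib1 arrays, so its TB14 direction was largely fixed too. Parp12, counted as lower in TB13, lay above it on 0 TB13 arrays and on all 4 arrays of TB14 and of Trib1. Irf7 and Parp12 stay in all counts given here. Over the genes whose mean of all 12 arrays lay above 22.7, the mean array median, which leaves out Xaf1 and Gbp2, 18 of 33 interferon genes were lower in TB14 over 19.9% of all genes, 17 in TB13 over 37%, and 13 in both lines over 13.6%. The median log2 change of the 35 genes in TB14 was -0.30, over a median of -0.0024 for all genes. In TB13 it was -0.56 as deposited, over -0.39 for all genes. Whether fewer cells express these genes or each cell holds less of their RNA cannot be told apart in bulk RNA.

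The shift relative to all genes had the same sign under each of the 4 scalings in both lines against Trib1. Each scaling moves all genes of an array together, and median scaling multiplies an array by a single factor. The TB14 arrays were also near the Trib1 arrays before any scaling. The agreement was therefore largely set in advance and is not independent support. The members' median minus that of all genes was -0.17 in TB13 as deposited, -0.33 after quantile scaling, -0.15 after median scaling and -0.19 after calibration. In TB14 it lay between -0.30 and -0.27 under the same scalings. The sign of a single gene in TB13 was less secure. Under calibration on the controls the members' own TB13 median was 0.32, with 24 genes higher and 5 lower, over 74% and 11.3% of all genes. Only Ifnar2, Ifngr2, Trim25, Parp9 and Ifitm2 were lower in TB13 under all 4 scalings, where 10.9% of all genes were, and only Ifitm3, Mx2, Oas2, Oasl1 and Rsad2 were higher under all 4, where 20.5% were. In TB14 the same 20 genes were lower, and the same 3 higher, under all 4 scalings (17.2% and 21.5% of all genes). Counted by single scalings, 8 genes were higher and 23 lower in TB13 as deposited, over 29% and 63.6% of all genes, and 4 and 21 in TB14, over 27% and 21.5%. After quantile scaling TB14 had 3 higher and 20 lower, over 22.9% and 20.8% of all genes, and both lines as 1 group had 8 higher and 20 lower, over 38.8% and 31.4%. After calibration TB14 had 4 higher and 20 lower, over 24.1% and 19.2% of all genes. Changes of 2-fold or more in TB13 as deposited were called for 0 genes higher and 10 lower, over 1.01% and 14.8% of all genes, and in TB14 for 0 higher and 1 lower, over 1.02% and 1.79%. Taking both lines as 1 group against Trib1, 20 genes were lower and 6 higher under both scalings, over 30.4% and 22.8% of all genes. As deposited 7 were higher and 23 lower for both lines, over 28.4% and 55.9% of all genes, with 0 and 2 of them 2-fold or more, over 0.41% and 3.06%, and after calibration 14 and 13, over 70.7% and 12.7%. Under all 4 scalings 4 were higher and 13 lower, over 17.9% and 12.4%.

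The other genes fell into smaller combinations. Irf1, Irf7, Samhd1, Ddx58 and Igtp, or 14.3% of the 35, were lower in TB14 and not called in TB13, over 5.37% of all genes. Mx2, Oas2, Oasl1, Rsad2, Adar and Ifitm1, or 17.1%, were higher in TB13 and not called in TB14, over 21.7%. Ifnar1, Ifngr2 and Parp12, or 8.57%, were lower in TB13 alone, over 15.6%, and Ifngr1, Ifit2 and Ifit3 were called in neither line, over 20.4%. Of the last 3 genes, Stat2 was higher in TB14 alone (12.9% of all genes), Ifitm2 was lower in TB13 and higher in TB14 (7.4%), and Ifitm3 was higher in both (2.35%). None of the 35 was higher in TB13 and lower in TB14, a combination held by 0.811% of all genes.

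**Figure D1:**
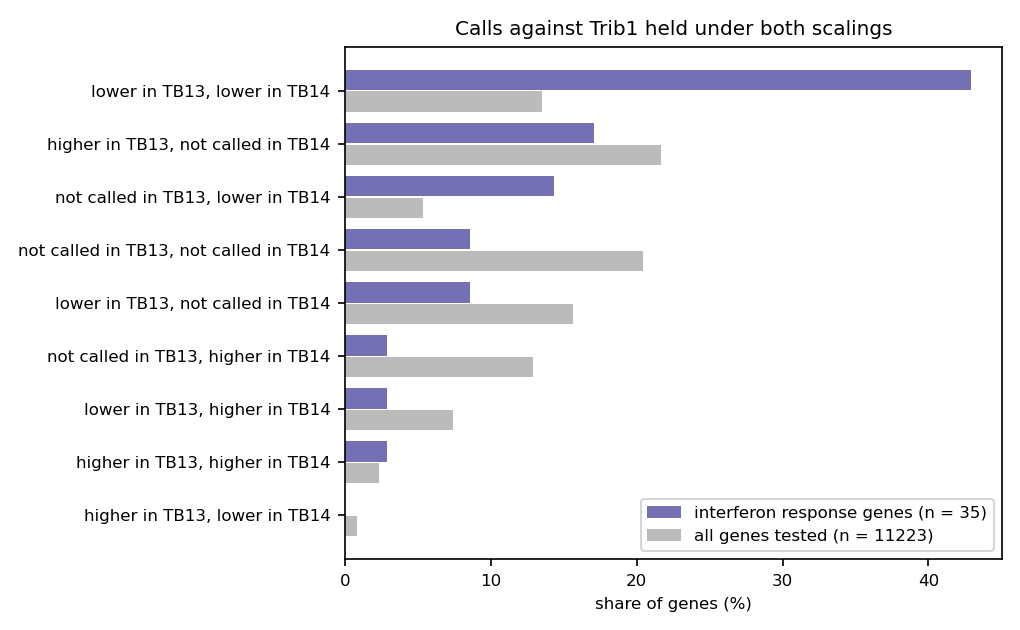
Share (%) of the 35 interferon response genes tested (purple) and of all 11223 genes tested (grey) with each combination of calls in TB13 and TB14 against Trib1, counting only calls made in the same direction from deposited and from quantile-scaled values. The combination lower in both lines held 42.9% of the interferon genes and 13.5% of all genes.

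**Figure D2:**
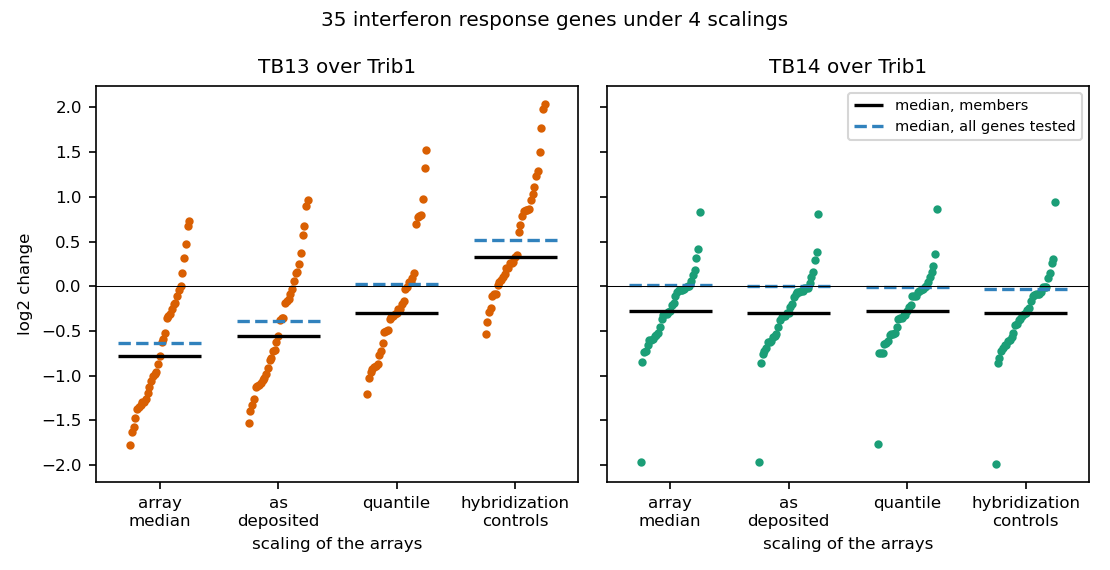
Log2 change of each of the 35 genes (points, sorted) in TB13 over Trib1 (left) and TB14 over Trib1 (right) under 4 scalings of the arrays, with the median of the 35 genes (black line) and of all genes tested (blue dashed line). The TB13 values move up and down with the scaling, and the black line lies below the dashed one in all 8 columns.

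Among the receptors, the subunits did not move together. Ifnar2, the subunit of the type I receptor with high affinity for the ligand, read 583, 545, 527 and 504 in TB13, 703, 705, 674 and 673 in TB14, and 1128, 1121, 1097 and 1119.6 in Trib1. All 8 arrays of the Bcl11a lines lay below all 4 Trib1 arrays. Its log2 change in TB14 was -0.69 ± 0.035 (SE; limma adjusted p = 2.57e-12), and in TB13 -1.03 as deposited and -0.50 after quantile scaling. Both of its other probe sets read lower too, with log2 changes of -0.92 and -1.14 in TB14 as deposited and -0.95 and -0.81 in TB13 after quantile scaling.

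Its partner Ifnar1 read 55.2, 63.0, 59.5 and 42.5 in TB13, 100.3, 114, 97.9 and 126 in TB14, and 89.5, 83.2, 83.8 and 90.4 in Trib1. TB13 lay below and TB14 above the Trib1 arrays. In TB14 the log2 change was 0.29 ± 0.086 as deposited (limma adjusted p = 0.00796) but missed the threshold after quantile scaling (0.23, adjusted p = 0.141). In TB13 Ifnar1 was lower under both scalings, at -0.56 as deposited and -0.31 after quantile scaling, and turned to 0.61 under calibration on the controls. The TB14 minus TB13 difference was called higher as deposited (0.86 ± 0.086) and after quantile scaling (0.54), and turned to -0.34 under calibration.

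The type II receptor passed no test in TB14. Ifngr1, its ligand-binding chain, read 182, 184, 158 and 165 in TB13, 304, 307, 297 and 313 in TB14, and 303, 309, 325 and 301 in Trib1. The TB14 and Trib1 arrays overlapped, with a log2 change of -0.019 ± 0.047 (limma adjusted p = 0.777), while TB13 was at -0.81 as deposited, -0.032 after quantile scaling (adjusted p = 0.51) and 0.20 under calibration. Ifngr2, its signalling chain, read 102, 106, 93.3 and 78.5 in TB13, 255, 256, 248 and 246 in TB14, and 274, 275, 265 and 261 in Trib1. The TB14 arrays lay just below the Trib1 arrays, but the change did not pass (-0.091 ± 0.062, limma adjusted p = 0.25) and Ifngr2 was lower in TB13 under all 4 scalings, at -1.39 as deposited and -0.73 after quantile scaling. A second Ifngr2 probe set did not show this, at 59.7 ± 3.68 in TB13, 54.0 ± 2.33 in TB14 and 61.5 ± 2.25 in Trib1 (SD, n = 4 each), which in TB13 is -0.037 (log2) for deposited values and 0.22 after quantile scaling.

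Of the factors, 4 IRF genes were lower in TB14 and Stat2 was higher. Irf9, the DNA-binding subunit of the type I complex, read 35.3, 46.2, 31.5 and 29.2 in TB13, 68.7, 67.8, 58.5 and 65.2 in TB14, and 103, 94.9, 106 and 106 in Trib1. The lines did not overlap, with TB13 lowest and Trib1 highest as deposited. The log2 change was -0.57 ± 0.082 in TB14 (SE; limma adjusted p = 9.38e-06) and -1.26 as deposited and -1.21 after quantile scaling in TB13, but -0.085 in TB13 under calibration, which did not pass (adjusted p = 0.336). Stat2, which joins Irf9 in the same complex, was dim and read 21.5, 24.8, 24.9 and 23.4 in TB13, 39.2, 42.0, 37.7 and 32.6 in TB14, and 23.8, 26.8, 25.7 and 27.3 in Trib1. Only TB14 stood above the Trib1 arrays, at 0.39 ± 0.056 (limma adjusted p = 9.6e-06). A second, dimmer Stat2 probe set changed by 0.051 in TB14, so the rise rests on 1 probe set.

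Irf1, an activator of interferon-gamma targets, read 229, 225, 222 and 250.2 in TB13, 224, 230.2, 234 and 232 in TB14, and 347, 356, 371 and 377 in Trib1. Under all 4 scalings it was lower in TB14 (-0.63 ± 0.042, limma adjusted p = 1.87e-10). In TB13 its sign turned with the scaling, with -0.62 as deposited, 0.14 after quantile scaling and 0.32 under calibration. Irf2, known as an antagonist of Irf1, read 42.2, 43.1, 35.2 and 41.4 in TB13, 77.7, 77.0, 80.0 and 80.5 in TB14, and 97.9, 104, 104 and 104 in Trib1. Its changes were -0.33 ± 0.054 in TB14 (limma adjusted p = 4.05e-05) and -1.12 as deposited and -1.03 after quantile scaling in TB13, or 0.069 under calibration (adjusted p = 0.381). Irf7, the amplifier of interferon-alpha production, stayed near the array medians and read 24.9, 26.5, 21.8 and 26.4 in TB13, 18.5, 16.9, 20.1 and 17.9 in TB14, and 27.2, 24.8, 24.2 and 25.9 in Trib1. Irf7 was lower in TB14 (-0.30 ± 0.050, limma adjusted p = 4.37e-05), and TB13 overlapped Trib1. Without the Trib1 arrays Irf7 would not have passed the filter, so its direction in TB14 was largely fixed by it.

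The brake on the pathway showed the largest fall of the 35 genes in TB14. Usp18, which removes Isg15 from proteins and blocks signalling at Ifnar2, read 91.0, 82.3, 87.2 and 85.8 in TB13, 41.6, 40.8, 42.5 and 42.4 in TB14, and 193, 204, 198 and 210.2 in Trib1. Every array of TB14 lay below every array of TB13, and every array of TB13 below every array of Trib1. The log2 change in TB14 was -1.97 ± 0.048 (SE; limma adjusted p = 3.51e-17), a 3.93-fold lower value on that scale, and -1.77 after quantile scaling. In TB13 it was -1.11 as deposited, -0.49 after quantile scaling and 0.017 under calibration on the controls (adjusted p = 0.817). Usp18 was lower in TB14 than in TB13 under all 4 scalings, at -0.86 as deposited and -1.28 after quantile scaling. It was the 1 gene of the 35 to fall 2-fold or more in TB14, where 1.79% of all genes did.

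**Figure D3:**
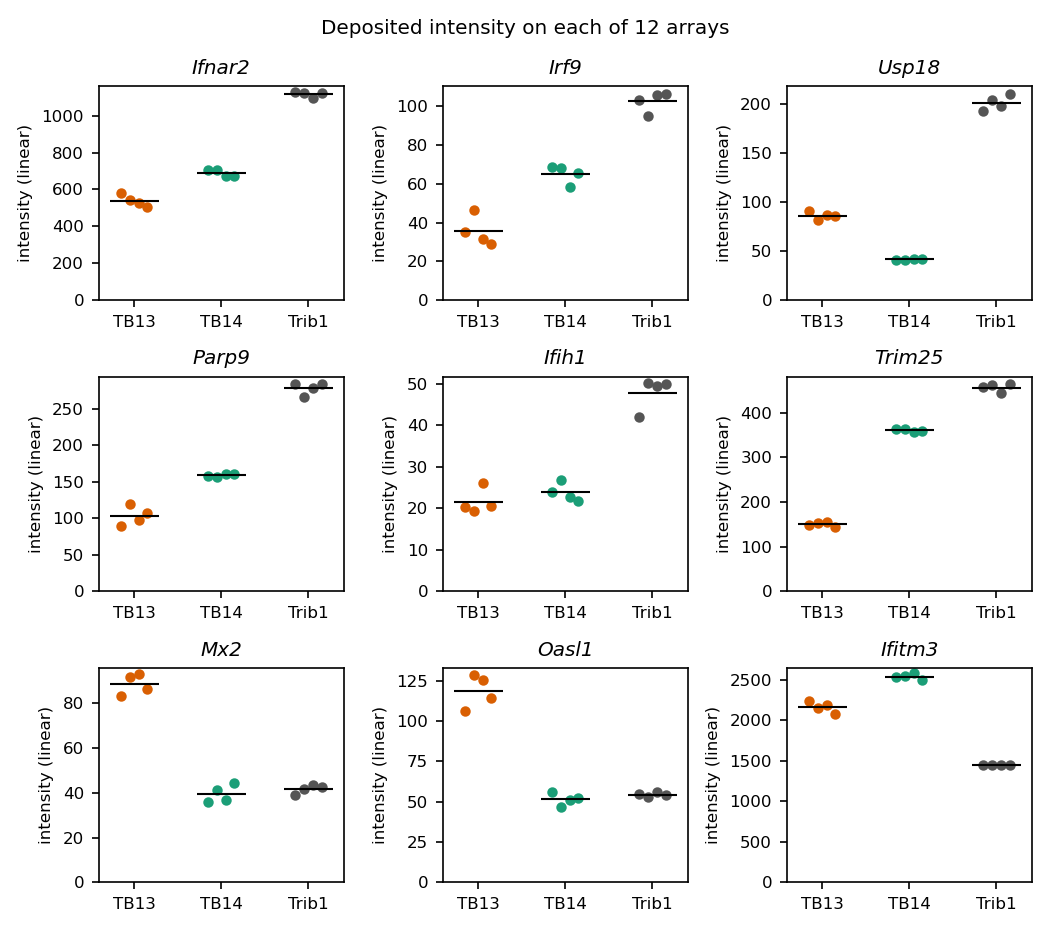
Deposited intensity (linear scale) on each of the 4 arrays per line (points) with the line mean (bar) for 9 genes, in the order TB13, TB14, Trib1. Usp18, Ifnar2, Irf9, Parp9, Ifih1 and Trim25 sit below Trib1 in both Bcl11a lines, Mx2 and Oasl1 are high in TB13 alone, and Ifitm3 is high in both.

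Ifih1, Ddx58 and Trim25, the 3 tested of 4 listed sensors of viral RNA and their regulators, were lower in TB14. Genes of interferon signalling and sensing on a wider list were mixed. Of 27 tested, 10, or 37%, were lower in TB14 under both scalings and 5, or 18.5%, higher. Over all genes tested 19.7% were lower and 22.6% higher. Sting1 and Myd88 averaged 556 and 225 in TB14 against 770 and 334 in Trib1. Mavs, the adaptor of Ifih1 and Ddx58, was at 0.0007 and the kinase gene Tbk1 at 0.0034 in TB14 (limma adjusted p = 0.995 and 0.955). The kinase gene Ikbke was higher, at 0.90. Ifih1, the MDA5 sensor of long double-stranded RNA, read 20.5, 19.3, 26.02 and 20.6 in TB13, 24.1, 26.9, 22.8 and 21.8 in TB14, and 42.1, 50.1, 49.4 and 49.9 in Trib1. Both Bcl11a lines lay below Trib1, at -0.73 ± 0.064 in TB14 (limma adjusted p = 1.12e-08) and -0.82 as deposited and -0.92 after quantile scaling in TB13, where calibration turned it to 0.27. Ddx58, the RIG-I sensor, averaged 167 ± 24.8 in TB13, 122 ± 2.17 in TB14 and 159 ± 6.13 in Trib1 (SD, n = 4 each). Ddx58 was lower in TB14 (-0.34 ± 0.070, limma adjusted p = 0.000389) and in TB13 was not called as deposited (0.060) and was called higher after quantile scaling (0.80). Its 2 dimmer probe sets changed by 4.9e-05 and -0.25 in TB14 as deposited, and in TB13 by 0.27 and -0.32 as deposited and 0.10 and -0.48 after quantile scaling, so neither the TB14 fall nor the TB13 value was shared by all 3. Trim25, the ubiquitin ligase that activates RIG-I, read 149, 154, 155 and 143 in TB13, 363, 364, 357 and 358 in TB14, and 457, 462, 443 and 464 in Trib1. It was lower in both lines under all 4 scalings, at -0.33 ± 0.035 in TB14 (limma adjusted p = 1.82e-07) and -1.53 as deposited and -0.77 after quantile scaling in TB13. Dhx58, the LGP2 regulator of both sensors, did not pass the filter and averaged 26.4 ± 3.01 in TB13, 17.9 ± 0.889 in TB14 and 20.8 ± 1.53 in Trib1 (SD, n = 4 each).

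The antiviral effectors split by line. Mx2, Oas2, Oasl1 and Rsad2 were higher in TB13 alone. Mx2, a dynamin-like GTPase that blocks viruses, read 83.2, 91.9, 92.9 and 86.5 in TB13, 35.7, 41.3, 37.0 and 44.3 in TB14, and 39.1, 41.7, 43.3 and 42.4 in Trib1. Oasl1, a member of the oligoadenylate synthetase family known in the mouse to restrain Irf7 translation, read 106, 129, 125 and 114 in TB13, 56.2, 46.9, 51.1 and 52.3 in TB14, and 54.6, 52.8, 56.0 and 54.2 in Trib1. In each case the TB13 arrays lay above all others and TB14 overlapped Trib1. The TB13 log2 changes were 0.90 as deposited and 1.33 after quantile scaling for Mx2, and 0.97 and 1.52 for Oasl1. The TB14 changes were -0.058 (limma adjusted p = 0.454) and -0.063 (limma adjusted p = 0.438).

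Oas2, which makes the oligoadenylates that activate RNase L, read 51.5, 60.4, 54.6 and 54.5 in TB13, 29.5, 29.1, 27.3 and 27.4 in TB14, and 30.3, 28.8, 30.3 and 29.6 in Trib1. It rose in TB13, by 0.68 as deposited and 0.79 after quantile scaling. The TB14 arrays overlapped those of Trib1. Rsad2, the radical enzyme viperin, averaged 68.8 ± 7.90 in TB13, 44.8 ± 1.71 in TB14 and 50.1 ± 2.99 in Trib1 (SD, n = 4 each) and rose in TB13 by 0.37 and 0.70. Its 2 dimmer probe sets changed by 0.057 and 0.22 in TB13 as deposited and -0.11 and 0.051 after quantile scaling. These 4 genes averaged 29.8 to 54.4 in Trib1, a range in which rises in TB13 were common: among 1769 tested genes at 30 to 60 in Trib1 the median TB13 change was 0.25 as deposited and 0.31 after quantile scaling, and 54.3% were higher under both scalings. The difference between the lines was called lower in TB14 than in TB13 under all 4 scalings for all 4 genes, where 20.4% of all genes were, and for Gbp2 and Usp18 as well.

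The remaining effectors were lower or not called in TB14. Eif2ak2, the kinase PKR that shuts down translation on sensing double-stranded RNA, read 37.6, 47.7, 37.7 and 48.5 in TB13, 88.2, 85.7, 88.2 and 87.0 in TB14, and 106, 109, 94.1 and 110.1 in Trib1. It was lower in TB14 (-0.23 ± 0.069, limma adjusted p = 0.00856). In TB13 it was lower under both scalings, at -1.09 as deposited and -0.96 after quantile scaling, but was at 0.098 under calibration. Samhd1, which depletes nucleotides needed by viruses, read 197, 180.0, 188 and 202 in TB13, 214, 222, 216 and 228 in TB14, and 312, 321, 339 and 332 in Trib1. It was lower in TB14 (-0.54 ± 0.043, limma adjusted p = 2.89e-09), where its second probe set changed by -0.44, and in TB13 was at -0.73 as deposited and 0.043 after quantile scaling. The second probe set read lower in TB13, at -1.25 as deposited and -0.53 after quantile scaling, so the TB13 value rests on the probe set.

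Rtp4, an interferon-induced chaperone of receptor transport, read 47.4, 50.1, 51.2 and 43.7 in TB13, 36.6, 39.5, 40.1 and 39.8 in TB14, and 62.5, 70.1, 61.4 and 70.7 in Trib1. Xaf1, a pro-apoptotic zinc finger protein, read 20.1, 20.4, 19.6 and 21.5 in TB13, 16.005, 14.97, 17.1 and 16.7 in TB14, and 29.9, 27.7, 29.7 and 31.6 in Trib1. Both were called lower in both lines, Xaf1 as a gene that passed the filter through the Trib1 arrays alone. The log2 changes of Rtp4 and Xaf1 were -0.61 ± 0.057 (limma adjusted p = 2.74e-08) and -0.56 ± 0.042 (adjusted p = 1.45e-09) in TB14. In TB13 they were -0.37 and -0.36 as deposited and -0.26 and -0.51 after quantile scaling, which calibration turned to 0.79 and 0.68. Ifi35 averaged 137 ± 14.9 in TB13, 252 ± 6.58 in TB14 and 314 ± 8.22 in Trib1 (SD, n = 4 each) and was lower in both lines, in TB13 not under calibration (-0.083, adjusted p = 0.212). Adar, which edits double-stranded RNA, was not called in TB14 and in TB13 was called higher under both scalings, but not after median scaling or over the mean of its 3 probe sets (0.032, adjusted p = 0.401). Ifit2 and Ifit3, which bind foreign RNA caps and ends, were not called under both scalings in either line, at 19.6 and 32.0 in TB13, 27.4 and 27.0 in TB14 and 23.1 and 27.7 in Trib1.

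The Ifitm genes, whose products block virus entry at membranes, each behaved differently. Ifitm3 read 2234, 2148, 2188 and 2076 in TB13, 2528, 2538, 2585 and 2496 in TB14, and 1442, 1442, 1442 and 1449 in Trib1. All 8 arrays of the Bcl11a lines lay above all 4 Trib1 arrays, and it was the 1 gene of the 35 called higher in both lines under both scalings, a combination held by 2.35% of all genes. Its log2 change was 0.81 ± 0.020 in TB14 (SE; limma adjusted p = 3.75e-17) and 0.58 as deposited and 0.77 after quantile scaling in TB13.

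Ifitm2 averaged 1703 ± 52.4 in TB13, 2357 ± 49.0 in TB14 and 2189 ± 51.6 in Trib1 (SD, n = 4 each). It was the 1 gene called lower in TB13 (-0.36 as deposited and -0.17 after quantile scaling) and higher in TB14 (0.11 ± 0.023, limma adjusted p = 0.000612) under both scalings. Ifitm1 read 8993 to 9159 in TB13, 7893 to 7999 in TB14 and 8026 to 8185 in Trib1, among the 4 brightest probe sets of every array. Its TB13 change was 0.16 as deposited, 0.097 after quantile scaling and -0.10 after median scaling. The Ifitm genes are a family of close copies, and so are the Gbp, Oas and Ifit genes, so signals could be shared between copies.

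The Parp genes, poly-ADP-ribose polymerase family members induced by interferon, were lower in both lines except Parp12, called in TB13 alone. Parp9, which works with its partner Dtx3l, read 89.3, 120.3, 97.8 and 107 in TB13, 158, 157, 161 and 161 in TB14, and 284, 267, 279 and 284 in Trib1. It was lower under all 4 scalings in TB14, at -0.76 ± 0.062 (SE; limma adjusted p = 3.63e-09), and in TB13, at -1.33 as deposited and -0.63 after quantile scaling. Parp14, a mono-ADP-ribosyltransferase, read 40.8, 40.4, 35.4 and 32.9 in TB13, 40.5, 40.0, 38.1 and 38.9 in TB14, and 78.0, 80.4, 83.6 and 85.2 in Trib1. The deposited readings of the Bcl11a lines lay close together. Their TB14 minus TB13 difference was not called as deposited (0.059) or after quantile scaling (0.14). It was called after median scaling (0.28) and under calibration (-1.12). The changes against Trib1 were -0.86 ± 0.056 in TB14 (limma adjusted p = 1.36e-10) and -0.92 as deposited and -0.89 after quantile scaling in TB13. Calibration turned the TB13 change to 0.26. Parp12 averaged 22.7 ± 3.53 in TB13, 28.6 ± 1.95 in TB14 and 27.7 ± 5.02 in Trib1 (SD, n = 4 each), and its TB13 call ended without TB13 replicate 1 or 4 or Trib1 replicate 2 or 4 (limma adjusted p = 0.0564, 0.137, 0.0575 and 0.154).

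Of the GTPases of the interferon-gamma response, which attack the vacuoles of intracellular microbes, Igtp, Irgm1 and Gbp2 were tested of 4 listed and called lower in TB14. Family members on the wider list went different ways. Ifi47 was higher in TB14, at 0.23 (limma adjusted p = 7.32e-05), and Iigp1 and Gbp4 were not called, at -0.039 and -0.011 (adjusted p = 0.637 and 0.891). Gbp7 and Gbp8 were among the largest falls of that list in TB14, Gbp8 having passed the filter through the Trib1 arrays alone. Tgtp1 and Irgm2 were also on it and are not described here. Igtp, also called Irgm3, read 143, 177, 109.7 and 137 in TB13, 148, 143, 153 and 154 in TB14, and 233, 246, 238 and 232 in Trib1. Igtp was lower in TB14 (-0.62 ± 0.085, limma adjusted p = 4.27e-06), and in TB13 was at -0.71 as deposited and 0.043 after quantile scaling (adjusted p = 0.687). Irgm1, a regulator of the family, read 38.9, 41.1, 47.7 and 42.0 in TB13, 70.6, 70.4, 70.1 and 70.8 in TB14, and 92.4, 96.0, 105 and 89.9 in Trib1. It was lower in both lines, at -0.38 ± 0.058 in TB14 (limma adjusted p = 1.55e-05) and -0.98 as deposited and -0.88 after quantile scaling in TB13, with 0.20 under calibration. Gbp2, a guanylate-binding protein, averaged 20.8 ± 0.424 in TB13, 14.7 ± 0.653 in TB14 and 25.1 ± 3.79 in Trib1 (SD, n = 4 each) and was above the array median in Trib1 alone, so its direction, lower in both lines, was fixed by the filter. Its TB13 change was 0.86 under calibration. Sp100, a nuclear body protein, read 41.4, 46.7, 44.6 and 46.0 in TB13, 85.9, 94.2, 88.2 and 92.2 in TB14, and 91.4, 110.2, 121 and 102 in Trib1. The TB14 and Trib1 arrays overlapped. Its TB14 change was -0.20 ± 0.066 (limma adjusted p = 0.0151) and lost the call without TB14 replicate 1 or Trib1 replicate 3 (adjusted p = 0.0501 and 0.0778), while a second probe set changed by -0.51 in TB14.

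The 7 genes that did not pass the filter, Ifit1, Mx1, Oas3, Oasl2, Dhx58, Gbp3 and Cxcl10, had line means of 8.91 to 26.4 in TB13, 9.32 to 17.9 in TB14 and 8.90 to 20.8 in Trib1, against array medians of 20.8 to 25.9. They were not tested.

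**Figure D4:**
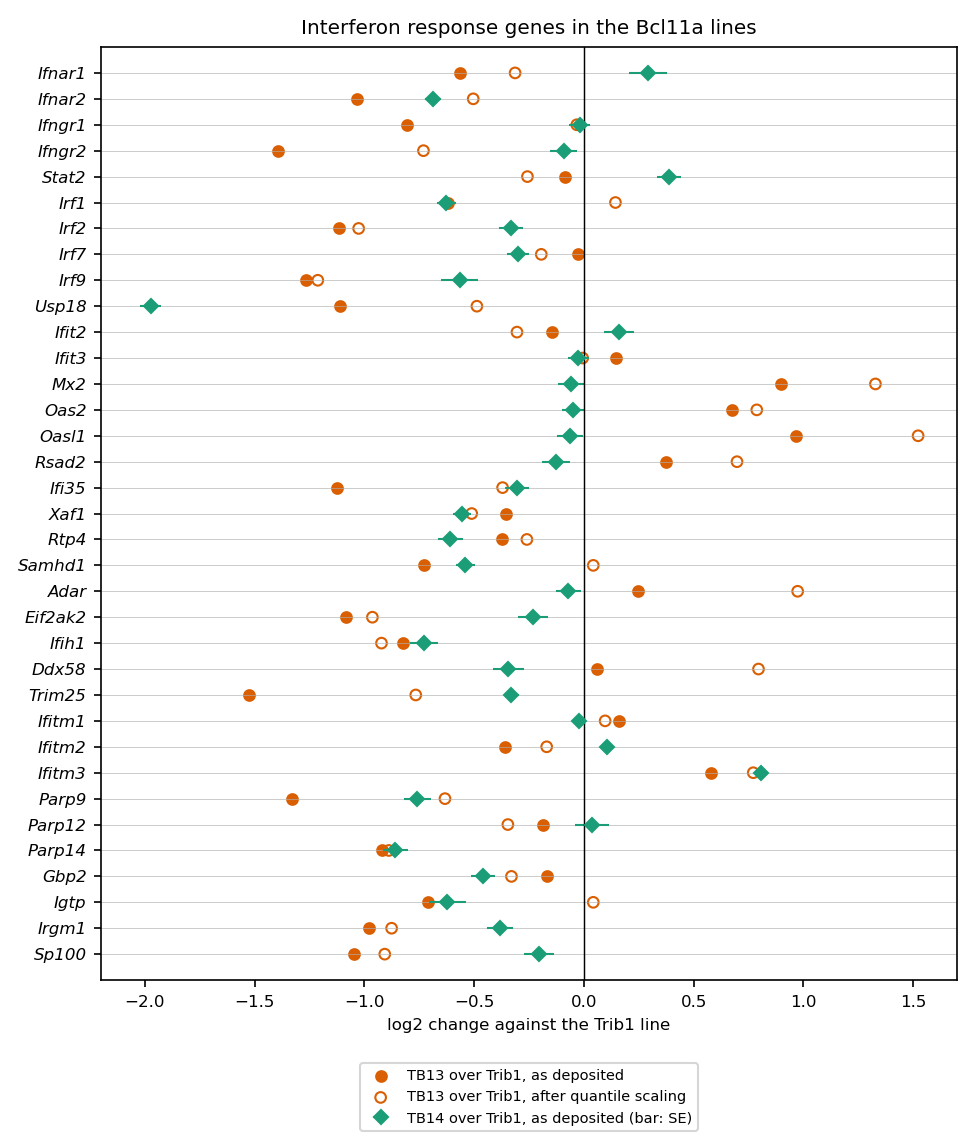
Log2 change against Trib1 of the 35 interferon response genes tested, by role from receptors (top) to nuclear body genes (bottom), in TB13 (filled circles for deposited values, open circles for quantile-scaled values) and in TB14 (diamonds for deposited values, bars give the SE). Most diamonds lie left of 0, with Usp18 at -1.97 and Ifitm3 at 0.81 as the ends.

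The comparison of the 2 Bcl11a lines is also the test of whether their changes against the shared Trib1 arrays differ. In TB14 over TB13, 13 of the 35 genes were higher and 10 lower under both scalings, over 36.9% and 25% of all genes, which are close to the members' 37.1% and 28.6%. After quantile scaling 14 were higher and 14 lower, over 38.7% and 41.3%. As deposited 18 were higher and 13 lower, over 63.4% and 29.4%, with 2 and 1 of them 2-fold or more, over 15.3% and 1.2%, and after calibration 4 were higher and 31 lower, over 13% and 71.5%. Under all 4 scalings Ifngr2, Trim25, Ifitm2 and Ifitm3 were higher in TB14 than in TB13, where 12.6% of all genes were.

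Other genes of the pathway came from a list of 132 that held no member. Of 86 tested, 38, or 44.2%, were lower in TB14 under both scalings and 14, or 16.3%, higher, over 19.7% and 22.6% of all genes. In TB13 45, or 52.3%, were lower and 15, or 17.4%, higher, over 36.5% and 24.8%. The 5 largest falls in TB14 were in Gbp8, Socs3, Epsti1, Gbp7 and Trim30a. Gbp8, a guanylate-binding protein that passed the filter through the Trib1 arrays alone and so had to be lower, averaged 9.48 ± 0.698 in TB13, 9.24 ± 0.595 in TB14 and 59.8 ± 4.08 in Trib1 (SD, n = 4 each), with log2 changes of -1.71 in TB13 and -1.72 in TB14 as deposited. Socs3, an inhibitor of cytokine receptor signalling, averaged 51.7 ± 6.71 in TB13, 40.5 ± 1.58 in TB14 and 144 ± 7.20 in Trib1 (SD, n = 4 each), with a TB14 change of -1.56. Epsti1, Gbp7 and Trim30a changed by -1.31, -1.20 and -1.05 in TB14.

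The 5 largest rises in TB14 were in Tor3a, an ATPase of the endoplasmic reticulum, at 1.04, the cytokine gene Il15 at 0.91, the kinase gene Ikbke at 0.90, Ms4a4b, which passed the filter through the TB14 arrays alone, at 0.86 and Il10rb, a receptor subunit shared by interferon-lambda and interleukin-10, at 0.39. Of 14 interferon genes listed, 8 had a probe set. Ifnb1 and Ifng did not pass the filter, with means of 21.6 and 10.8 in TB13, 19.97 and 10.6 in TB14 and 21.3 and 10.1 in Trib1. Ifna1, Ifna2 and Ifna9, near-identical members of the interferon-alpha family, were called higher in TB13 under both scalings and were not called in TB14. Ifna1 passed the filter through the TB13 arrays alone, so its direction was fixed, and in Trib1 the 3 genes averaged 14.7, 48.6 and 24.6. Among tested genes below 20 in Trib1, at 20 to 30 and at 30 to 60, 85.4%, 60% and 54.3% were called higher in TB13 in the same way.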

How the data were processed

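Each of the 12 arrays gave 1 column of linear signal intensity per probe set in the authors' deposited value table, made with MAS5 per the submitters' processing notes; how the arrays were scaled was not stated by the labels. The 45141 probe sets included 104 controls, 28898 with 1 gene name and 551 with several, by the platform annotation supplied with the data. Samples were grouped by title. A gene was represented by its single-gene probe set with the highest mean, kept where above the array median on at least 4 of 12 arrays. Values were taken as log2(intensity + 12.7), the pseudocount being the 25th percentile of all values, and fitted over all 12 arrays with limma 3.58.1 in R 4.3.3 (lmFit, eBayes with trend) for 4 comparisons, with Benjamini-Hochberg adjustment over all 11223 genes. The fit was tested on simulated data. The number of arrays limits the precision. Alternatives were quantile and median scaling, calibration on 18 hybridization controls, other filters and pseudocounts, no trend, the mean of probe sets, a 2-fold threshold, a replicate block and each array left out. The median within-line SD was 0.071 on the log2 scale.

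Per-array values are given for receptors, STAT and IRF genes and for genes called with a log2 change of at least 0.5 under both scalings, up to 25, and for other pathway genes the 5 largest called rises and falls in TB14. The genes and lists were chosen with earlier results of these data known. No promoter was matched for Usp18, Mx1, Mx2, Oas2, Rtp4, Dhx58, Parp9 and Parp14.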

Additional observations from a re-analysis of the deposited data

Results flagged for a closer look

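Among 75 groups of 4 arrays checked, 3 held 1 array far from the other 3. Irf2 read 97.9 on Trib1 replicate 1, with the nearest array at 103.6. Ifih1 read 42.1 on the same array, with the nearest at 49.4. Ifitm3 read 1449 on Trib1 replicate 4, with the nearest at 1442. Such a gap arises by chance in about 1 of 20 groups.

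Between the Bcl11a lines, 13 of the 35 genes were higher and 10 lower in TB14 than in TB13 under both scalings. Over all genes 36.9% were higher and 25% lower. Oasl1 is listed because its difference was called and at least 2-fold both as deposited and after quantile scaling. As deposited its TB14 minus TB13 log2 difference was -1.03 (limma adjusted p = 4.62e-12). For Ifitm2 the lines moved in opposite directions against Trib1, with a TB14 minus TB13 difference of 0.47 (limma adjusted p = 2.27e-13).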

How the results depend on the processing

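TB14 calls changed little with the scaling and TB13 calls changed with it; the cause was not tested. The counts as deposited were 8 higher and 23 lower in TB13, 4 and 21 in TB14, 7 and 23 for both lines against Trib1, and 18 and 13 in TB14 over TB13. Calibration on the controls gave 24 higher and 5 lower in TB13, 14 and 13 for both lines, and 4 and 31 in TB14 over TB13. Median scaling gave 5 higher and 28 lower in TB13 (20.5% and 70.7% of all genes), 4 and 26 for both lines (18.1% and 64.2%), and 23 and 6 in TB14 over TB13 (71% and 20.4%). A 2-fold threshold gave 0 higher and 10 lower in TB13, 0 and 1 in TB14, 0 and 2 for both lines, and 2 and 1 in TB14 over TB13. With each array left out in turn, TB13 had 8 higher and 22 to 24 lower, TB14 had 4 to 5 higher and 19 to 22 lower, both lines had 6 to 8 higher and 22 to 23 lower, and TB14 over TB13 had 17 to 19 higher and 13 lower. The shares of all genes were not counted for the fits with an array left out.

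The members' median turned sign under calibration, to 0.32 in TB13, 0.023 for both lines and -0.82 in TB14 over TB13, and after quantile scaling to -0.0064 in TB14 over TB13. In TB13 calibration also turned Ifnar1 to 0.61, Ifngr1 to 0.20, Irf1 to 0.32, Irf2 to 0.069, Usp18 to 0.017, Xaf1 to 0.68, Rtp4 to 0.79, Samhd1 to 0.26, Eif2ak2 to 0.098, Ifih1 to 0.27, Parp12 to 0.86, Parp14 to 0.26, Gbp2 to 0.86, Igtp to 0.35, Irgm1 to 0.20 and Sp100 to 0.14. Quantile scaling turned Irf1 to 0.14, Ifit3 to -0.0056, Samhd1 to 0.043 and Igtp to 0.043 in TB13. Median scaling turned Ifit3 to -0.041 and Ifitm1 to -0.10 in TB13, and Ifitm1 to 0.00041 in TB14.

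Replicate numbers did not pair the arrays, since 1 of 12 correlations of same-numbered arrays was over 0.1 (range -0.11 to 0.12). With the replicate block, 24 genes were lower in TB13 and 5 higher in TB14, and the other counts were as without it. The shares of all genes were not counted with the block. The fit without the TB13 arrays, the counts under both scalings and the counts over genes with a mean above the mean array median were chosen after seeing the data. Dim genes near the array median limit what could be tested.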
